A study of Mus musculus with 4 samples.

Results

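Presomitic mesoderm at the early headfold stage was described from the cells of the EHF library that carried its marker transcripts. A cell was taken when it had at least 1 UMI (unique molecular identifier, 1 captured molecule) of 3 or more of Dll1, Dll3, Hes7, Msgn1, Tbx6, Lfng and Mesp2, and no UMI of Meox1 or Nkx1-2. The rule took 62 of 3494 EHF cells (1.77%, exact binomial 95% interval 1.36 to 2.27), out of 11123 cells in the whole series. They are called presomitic cells here, and the other 3432 cells of the library are the other EHF cells. The embryos were TnEGP-CreERT2/+; R26Rtdtomato/R26Rtdtomato, so CreERT2 was made from the T locus and activated a tdTomato reporter when tamoxifen was given by oral gavage (0.08 mg/bw). EHF embryos received tamoxifen at E7+7h and were collected at E7+14h. The other libraries, MS-LS and OB-EB, had the same genotype and dose, with tamoxifen at E6+5h and E6+21h and collection at E6+21h and E7+3h. Embryos of a stage were pooled, and each stage is 1 library with no untreated control.

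Presomitic mesoderm is the strip of paraxial mesoderm between the primitive streak and the first somites. Its cells leave the streak, carry T-box factors such as Tbx6, and express Notch ligands and targets that oscillate as the segmentation clock, under Wnt and FGF signals that are strongest posteriorly. At its anterior end Mesp2 marks the next segment boundary, after which cells turn on somite genes such as Meox1 and Tcf15, while Nkx1-2 marks the caudal epiblast from which the tissue is fed.

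The presomitic cells held 402602 UMIs, with 1598 to 14522 per cell and a median of 6267, against a median of 5576 in the other EHF cells. The EHF stage was deposited as a pair of tables with identical counts, which were counted as 1 library. The 3 stages held 3494 to 3994 cells, with medians of 2620.5 to 5584 UMIs per cell. EHF shared 12 barcodes with MS-LS and 14 with OB-EB. Cells are not replicates, so no test was made, and intervals are exact 95% intervals of counts that cover counting error only. The library stands for pooled embryos, and differences between embryos cannot be told apart from differences between cells.

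The proximal promoters of the rule genes are shown for the 3 genes in which letters of a Notch effector motif were found, since Notch signalling drives the clock they belong to. Each line gives the 250 bases before the RefSeq start (GRCm38.p6), 5′ to 3′ on the strand of the gene, with motif matches in capitals. Hes7 lies at chr11:69120203-69120452 on the plus strand, Lfng at chr5:140607091-140607340 on the plus strand and Msgn1 at chr12:11208949-11209198 on the minus strand.
Hes7: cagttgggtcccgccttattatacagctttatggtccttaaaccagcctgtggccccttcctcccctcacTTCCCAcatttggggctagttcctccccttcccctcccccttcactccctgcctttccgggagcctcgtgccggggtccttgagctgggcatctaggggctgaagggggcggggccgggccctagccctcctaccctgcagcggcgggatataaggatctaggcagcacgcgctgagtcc
Lfng: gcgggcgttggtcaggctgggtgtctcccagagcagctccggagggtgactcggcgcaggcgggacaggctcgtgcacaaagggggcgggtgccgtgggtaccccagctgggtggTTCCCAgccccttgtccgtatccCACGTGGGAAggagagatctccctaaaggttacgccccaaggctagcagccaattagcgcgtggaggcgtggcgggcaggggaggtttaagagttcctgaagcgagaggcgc
Msgn1: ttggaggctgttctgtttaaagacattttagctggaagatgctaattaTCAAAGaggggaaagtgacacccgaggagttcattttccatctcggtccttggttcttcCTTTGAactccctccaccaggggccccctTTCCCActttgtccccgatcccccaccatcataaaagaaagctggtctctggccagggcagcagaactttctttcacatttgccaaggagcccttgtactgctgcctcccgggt
The motifs searched on both strands were the RBPJ core TGGGAA, the E-box CACGTG, the T-box core AGGTGT and the TCF/LEF core CTTTGA. Hes7 held 1 RBPJ core, Lfng held 2 with an E-box that shares letters with the second of them, and Msgn1 held 1 RBPJ core and 2 TCF/LEF cores. The RBPJ core was present in the windows of 3 of the 7 marker genes, and in 21.6% of 32851 RefSeq promoter windows of the same length. The E-box was in 1 of 7 against 6.02% of all windows, the TCF/LEF core in 1 of 7 against 13.8% and the T-box core in 0 of 7 against 11.8%. A match is a string of letters and not a binding site.

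The 7 markers were selected on, so their levels describe the choice of cells and carry no test. Tbx6, the T-box factor of paraxial mesoderm, had a UMI in 51 of the 62 cells (82.3%), and its level was 221 CPM (UMIs summed over the cells, per 1000000 UMIs). The Notch ligands Dll1 and Dll3 were found in 48 cells (77.4%, 204 CPM) and 38 cells (61.3%, 144 CPM). Hes7, the oscillating repressor of the clock, was found in 37 cells (59.7%, 122 CPM). Lfng, which modifies Notch, was found in 16 cells (25.8%, 42.2 CPM), Mesp2 in 7 (11.3%, 22.4 CPM) and Msgn1, a bHLH factor of the posterior part, in 5 (8.06%, 12.4 CPM). The highest count of a marker in a cell was 7 UMIs, for Dll1, so a cell without a UMI of a marker may still have carried its transcript. In 335 cells with at least 3 extraembryonic ectoderm markers, where the transcripts should be absent, Tbx6 was found in 0.299%, Dll1 in 1.79%, Hes7 in 2.39% and Dll3 in 4.18% of cells, at a median of 7439 UMIs per cell.

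**Figure D1:**
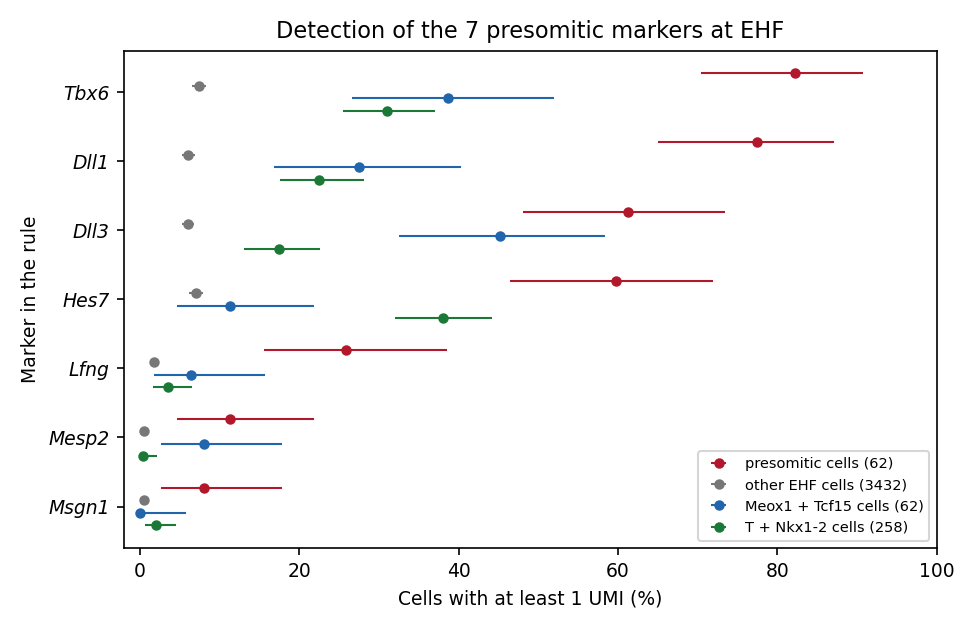
Share of cells (%) with at least 1 UMI of each of the 7 markers in presomitic cells, other EHF cells and the comparison groups, with exact binomial 95% intervals as bars. Tbx6 was found in 82.3% and Dll1 in 77.4% of presomitic cells, which were selected on these genes, and Mesp2 and Msgn1 were rare in each group.

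The cells did not carry the markers in a uniform way. Dll1 with Tbx6 was the most frequent pair, in 39 of 62 cells, and Dll1, Hes7 and Tbx6 was the most frequent full set, in 13 cells. Dll1, Dll3 and Tbx6 made up the set in 10 cells and Dll3, Hes7 and Tbx6 in 8. Most members stood at the threshold, with 48 cells carrying 3 markers, 12 carrying 4 and 2 carrying 5. Just outside it were 83 cells with 2 markers and no Meox1 or Nkx1-2, with a median of 4843 UMIs, in which Tbx6 was found in 51.8% and Dll1 in 55.4%. Another 75 cells had 3 or more markers but also Meox1 (31 cells), Nkx1-2 (41) or both (3).

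The label was checked against markers of other cell types. No presomitic cell had 3 or more markers of the extraembryonic ectoderm, erythroid, endothelial, heart field, notochord, neuroectoderm, surface ectoderm or intermediate mesoderm lists. In the other EHF cells the shares were 9.76%, 2.77%, 2.62%, 1.60%, 0.466%, 1.43%, 0.0291% and 0% in the same order. Where that share was near 0, absence in 62 cells says little. At least 1 intermediate mesoderm marker was found in 14 of 62 presomitic and 242 of 3432 other EHF cells. At least 3 endoderm markers were found in 1 presomitic cell, 3 lateral plate markers in 2 and 3 somite markers in 1. The shares in the other EHF cells were 10.4%, 7.08% and 1.54%. Low counts of abundant visceral endoderm transcripts were present, with Ttr, a carrier protein, in 20 of 62 cells at 159 CPM against 1157 CPM in the other EHF cells. The summed level of the 5 extraembryonic ectoderm markers was 22.4 CPM against 369 CPM in the other EHF cells, with 3 of the 5 at 0. The summed endoderm list was at 395 CPM in presomitic cells and 2121 CPM in the other EHF cells, with 2 of its 6 genes, Sox17 and Foxa1, at 0. At least 3 posterior streak markers were found in 50 of 62 presomitic cells (80.6%) and in 26.7% of the other EHF cells.

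The comparison with all other EHF cells asked which transcripts differed between presomitic cells and the rest of the embryo, which includes the neighbouring populations compared below. Presomitic cells had more of the retinoic acid enzyme Aldh1a2, of the protocadherin Pcdh19, of the caudal factor Cdx1, of T and of the Wnt enhancer Rspo3, and less of the keratins Krt8 and Krt18 and the metallothioneins Mt1 and Mt2. Of 9449 genes with at least 100 UMIs over all EHF cells, 434 (4.59%) were at least 2-fold higher in the presomitic cells and 1138 (12.0%) at least 2-fold lower. The median log2 ratio over these genes was -0.04. The other EHF cells hold every other lineage of the embryo, so these ratios depend on which lineages were captured.

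Aldh1a2 (chromosome 9, 71215789 to 71296243), which makes retinoic acid, ranged from 0 to 11 UMIs in a presomitic cell with a median of 1. It was found in 40 of the 62 cells at 286 CPM (exact Poisson interval 236 to 343) and in 361 of 3432 other cells at 38.4 CPM, a log2 ratio of 2.90 (2.60 to 3.18). Pcdh19 (chromosome X, 133582860 to 133688987), an adhesion molecule, ranged from 0 to 7 UMIs with a median of 1. It was found in 37 presomitic cells at 221 CPM and in 328 others at 30.3 CPM, a log2 ratio of 2.87 (2.53 to 3.19). Single cells overlapped for both genes, since some presomitic cells had none and some other cells had up to 14 UMIs of Aldh1a2.

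Among 15 measured genes of the presomitic list beside the rule genes, 11 were at least 2-fold higher in presomitic cells and 2 lower, with a median log2 ratio of 1.53. Rspo3, which amplifies Wnt signals, was found in 52 of 62 cells at 328 CPM against 67.6 CPM, a log2 ratio of 2.28 (2.01 to 2.54). The ephrin receptor Epha1 and its ligand Efna1 were higher by 1.73 and 2.17, Fst, which binds activins, by 1.66 and Mesp1 by 1.38. Cited1, a transcriptional coactivator, was found in 50 cells at 556 CPM against 304 CPM, a log2 ratio of 0.87. The 2 lower genes were Cer1, a secreted Nodal and BMP antagonist, at -2.88 from 1 UMI, and Hes1 at -1.28.

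Genes of the posterior streak were also higher, with 8 of 15 past 2-fold and 1 lower and a median of 1.01. Cdx1 was found in 54 of 62 cells with up to 16 UMIs, at 596 CPM (523 to 677) against 160 CPM, a log2 ratio of 1.90 (1.71 to 2.09). T, the T-box factor of the streak, was found in 40 cells at 291 CPM against 85.2 CPM, a log2 ratio of 1.77 (1.49 to 2.04). Sp5, a Wnt target, stood at 1.86. Cdx2 differed less, at 134 CPM against 116 CPM, and its interval included 0 (-0.21 to 0.60). Eomes, the early streak factor, was the lower gene, at -1.61 from 2 UMIs, and its interval reached 0.26.

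The Wnt list had 10 of 22 genes at least 2-fold higher and 1 lower, with a median of 0.92. Its ligand Wnt3a stood at 2.28, from 12 UMIs in the presomitic cells, and the nuclear effector Lef1 at 2.10, with 226 CPM against 52.6 CPM. The feedback target Axin2 stood at 1.12, and the secreted inhibitor Sfrp1 was the lower gene, at -2.05. The FGF list had 10 of 18 higher and 1 lower, with a median of 1.04. The ligands Fgf17 and Fgf15 stood at 2.52 and 2.12, Fgf8 at 1.11 (0.40 to 1.73) and the receptor Fgfr1 at 0.95, while the receptor Fgfr2 stood at -1.95. Among FGF responses, Etv4 stood at 1.51, Spry4 at 1.65 and Dusp6 at 1.13. The lists share genes, since Rspo3, Wnt3a, Wnt8a, Sp5, Fgf8 and Fgf17 also belong to the presomitic or posterior streak lists.

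Of the Notch genes outside the rule, 2 of 12 were at least 2-fold higher and 2 lower, with a median of 0.30. Over all measured genes 4.59% were higher and 12.0% lower, and Notch1, Nrarp and Hes1 also belong to the presomitic list. The receptor Notch1 stood at 1.53 (0.71 to 2.26) and the feedback gene Nrarp at 1.38, whereas the receptor Notch2 stood at -2.37 from 1 UMI, with an interval that reached 0.12, and the target Hes1 at -1.28. Of 9 retinoic acid genes, 4 were higher and 0 lower, with a median of 0.32. Beside Aldh1a2 they included the binding proteins Crabp1 at 2.21 and Crabp2 at 1.08. The degrading enzyme Cyp26a1 stood at -0.50, with an interval of -1.63 to 0.43.

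Of 11 measured Hox genes, 8 were at least 2-fold higher and 0 lower, with a median of 1.55. They were led by Hoxa2 at 2.52, Hoxa5 at 2.45 and Hoxb1 at 2.09. Hoxb1 had a UMI in 43 of 62 cells, and Hoxb2, in 30 cells, stood at 1.55. Of the 31 Hox genes in the table, 15 had 0 UMIs in presomitic cells, among them Hoxa7, Hoxa9, Hoxa10 and Hoxb6. Low counts of others from the middle and 5′ parts of the clusters were present, with 7 UMIs of Hoxb8, 6 of Hoxb5, 4 of Hoxd9 and 3 each of Hoxb7 and Hoxb9. Of the 11 measured genes, 1 had an interval wholly below 0. A measured gene at 0 UMIs, such as Hoxb6, was set to a floor of 3 UMIs, which limits a call of lower.

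In the other direction, 6 of 10 BMP and Nodal genes were at least 2-fold lower and 0 higher, with a median of -1.19. Id2 and Id3, targets of BMP signalling, stood at -2.99 and -1.30, Bmp7 at -2.82 and Bmp4 at -1.09. Adhesion genes went both ways, with 4 of 15 higher and 6 lower. The mesenchymal cadherin Cdh2 stood at 1.98 and the receptor Pdgfra at 1.40, while the epithelial Cdh1 stood at -1.36, Epcam at -1.38, Krt18 at -3.26 and Cldn6 at -3.53. Pluripotency genes had 1 of 10 higher and 4 lower, since Pou5f1 stood at 1.03 with a UMI in 54 of 62 cells and Utf1, a chromatin factor of the epiblast, had 1 UMI, a log2 ratio of -4.85 (-10.15 to -2.37). Of 14 genes of glycolysis and glucose uptake, 4 were lower and 0 higher, the transporters Slc2a3 at -2.10 and Slc2a1 at -1.39 among them, while Ldha stood at -0.06. The 12 S phase and the 12 G2/M genes had 0 members past 2-fold in either direction.

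Among genes found in at least 15% of presomitic cells, rule genes left out, the largest ratios were for Arg1, arginase, with 33 UMIs in 21 of 62 cells, 82.0 CPM against 7.51 CPM and a log2 ratio of 3.45 (lower bound 2.86), and Gal, the neuropeptide galanin, with 91 UMIs in 36 cells and 3.10 (2.77 to 3.43). Car3, a carbonic anhydrase, followed at 2.98. The rest of the 15 highest were Aldh1a2, Pcdh19, Sh3gl3, Dach1, Hoxa2, Lrp8, Fgf17, Chst7, Hoxa5, Arl4d, Fabp7 and Rnf213, from 2.90 to 2.33. Among genes found in at least 25% of the other EHF cells, the lowest were the metallothioneins Mt2 at -3.97 and Mt1 at -3.28, Rhox5 at -3.72, Cldn6 and Krt18, then Id2, Apoc1, Spink1, Ttr and Krt8 at -2.75. RefSeq windows were found for 12 of the 15 highest genes. The RBPJ core was in 3 of the 12 (21.6% of all windows), the T-box core in 3 (11.8% of all), the TCF/LEF core in 1 (13.8% of all) and the E-box in 0 (6.02% of all).

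**Figure D2:**
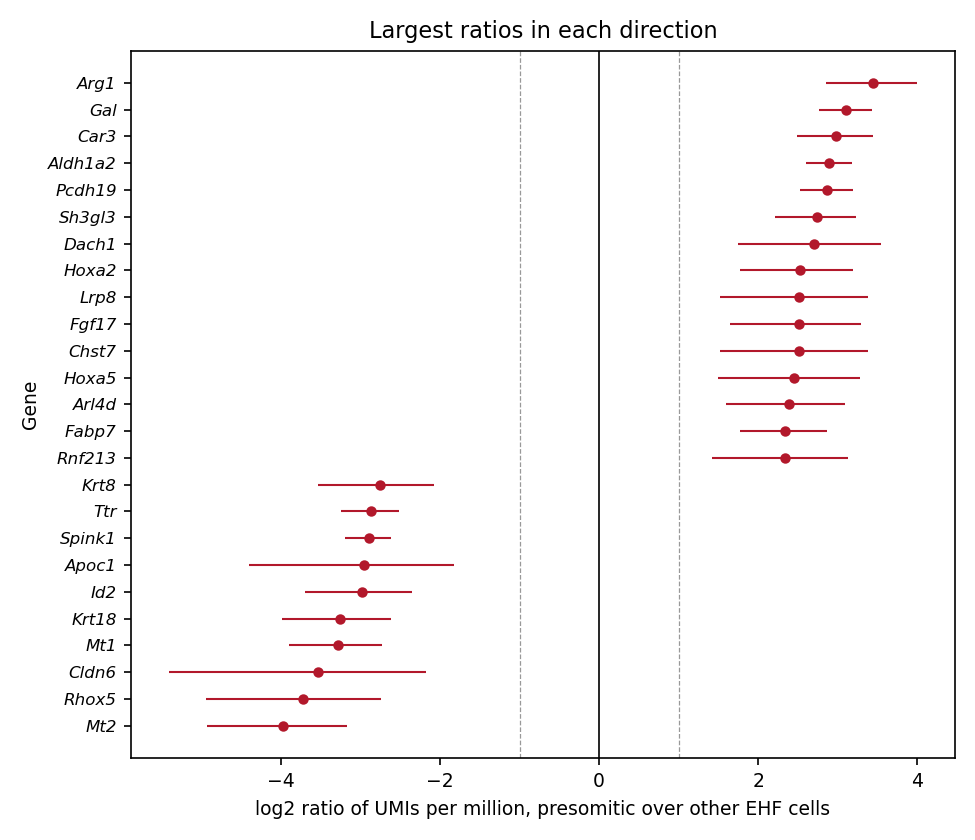
Log2 ratio of CPM in presomitic cells over other EHF cells for the 15 highest genes found in at least 15% of presomitic cells and the 10 lowest found in at least 25% of the others, with exact 95% intervals from the UMI sums as bars and dashed lines at 2-fold. Arg1 stood highest at 3.45 and Mt2 lowest at -3.97.

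Presomitic cells were then set beside the neighbouring populations named in the rule. Caudal cells were 258 cells with UMIs of T and Nkx1-2 (median 6204.5 UMIs), and somitic cells were 62 cells with UMIs of Meox1 and Tcf15 (median 6174 UMIs). The name somitic rests on Meox1 and Tcf15 only. Among these 62 cells Dll3 was found in 28, Tbx6 in 24, T in 19 and Nkx1-2 in 7. The somite genes Pax7, Pax9 and Tbx18 had 0 UMIs in them, so the group may hold cells that are not somitic. Among the 258 caudal cells Hes7 was found in 98, Tbx6 in 80, Dll1 in 58 and Meox1 in 11. The caudal and somitic groups may thus share cells. Levels of T, Cdx2 and Cdx1 stepped down from caudal to presomitic to somitic cells, and those of Foxc1 and Foxc2, forkhead factors of paraxial mesoderm, stepped up. Aldh1a2 and Pcdh19 were at similar levels in presomitic and somitic cells and far lower in caudal cells, and Cdh1 was lower in both than in caudal cells. Arg1, the highest gene over other EHF cells, was found in 21 of 62 presomitic, 16 of 62 somitic and 25 of 258 caudal cells. Gal was found in 36, 7 and 87 cells in the same order. T, Nkx1-2, Meox1 and Tcf15 chose the groups and are given as a description only.

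Against caudal cells, 484 of 9308 genes (5.20%) were at least 2-fold higher in presomitic cells and 747 (8.03%) lower. Aldh1a2 was at 286 CPM in presomitic and 51.4 CPM in caudal cells, a log2 ratio of 2.47 (2.06 to 2.89), and Pcdh19 stood at 2.82 (2.31 to 3.33). Crabp1 stood at 2.71, Lhfp at 2.71, Rasgrp3 at 2.44, Foxc1 at 2.37 and Pdgfra at 2.27. Cdh1 was at 24.8 CPM in presomitic and 104 CPM in caudal cells, a log2 ratio of -2.07 (-3.16 to -1.16), and Cdh2 stood at 1.36 (0.78 to 1.93). Of 15 posterior streak genes, 0 were higher in presomitic cells and 4 were lower, and Cdx2 was at 134 CPM against 320 CPM (-1.26, -1.69 to -0.85). Cdx1 was close, at 596 CPM against 741 CPM. Of 16 FGF genes with a ratio, 0 were past 2-fold in either direction. Of 11 Hox genes 1 was higher and 1 lower, and of 10 BMP and Nodal genes 0 were higher and 3 lower. The lowest ratios besides Cdh1 were those of 1190002N15Rik at -2.62, the peptide ligands Apela at -2.42 and Apln at -2.07, and the growth factor Pdgfa at -2.36.

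Against somitic cells, 793 of 8155 genes (9.72%) were at least 2-fold higher in presomitic cells and 673 (8.25%) lower. Cdx1 was at 596 CPM in presomitic and 165 CPM in somitic cells, a log2 ratio of 1.85 (1.46 to 2.25), and Cdx2 stood at 1.26. Wnt3a had 12 UMIs in the presomitic cells and 0 in the somitic cells, and Fgf17 had 15 and 0. With 3 UMIs set as the floor for the somitic group, these log2 ratios were at least 2.09 and at least 2.42. The ephrin ligand Efna1 stood at 4.55 from 22 UMIs against 1 (interval 1.92 to 9.92), Arl4d at 4.26 and Hoxa5 at 3.79, both also against 1 UMI. Gal stood at 3.43 (2.44 to 4.61), and Hoxaas3, an antisense transcript of the Hoxa cluster whose counting strand was not tested, had 34 UMIs against 0. Foxc2 was at 19.9 CPM against 107 CPM (-2.43, -3.72 to -1.33) and Foxc1 at 47.2 CPM against 97.8 CPM. Cer1 stood at -4.37, the prostaglandin synthase Ptgds at -3.81, Ppp1r1a at -3.08 and the Wnt inhibitor Sfrp1 at -2.64. Aldh1a2 and Pcdh19 differed by -0.33 and -0.23, with intervals that included 0. Of 6 BMP and Nodal genes with a ratio, 1 was higher and 1 lower. Of 16 FGF genes 9 were higher and 1 lower, and of 10 Hox genes 6 were higher and 0 lower.

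A few genes were highest in the presomitic cells. Cited1 was at 556 CPM in presomitic, 155 CPM in caudal and 144 CPM in somitic cells, a log2 ratio of 1.84 (1.58 to 2.10) and 1.95 (1.53 to 2.38). Rspo3 was at 328, 140 and 170 CPM in the same order, which gives 1.23 (0.91 to 1.54) over caudal and 0.95 (0.52 to 1.38) over somitic cells. Cdh2 was at 104, 40.5 and 55.9 CPM. The summed endoderm list was at 395 CPM in presomitic, 321 CPM in caudal and 116 CPM in somitic cells, and its part in these ratios was not tested. It was at 133 CPM in cells with 2 markers and 93.5 CPM in cells with 3 or more markers and Meox1 or Nkx1-2. Against these groups the presomitic list beside the rule genes had median log2 ratios of 0.16 and 0.17. In each, 2 of 13 genes with a ratio were at least 2-fold higher and 0 lower.

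**Figure D3:**
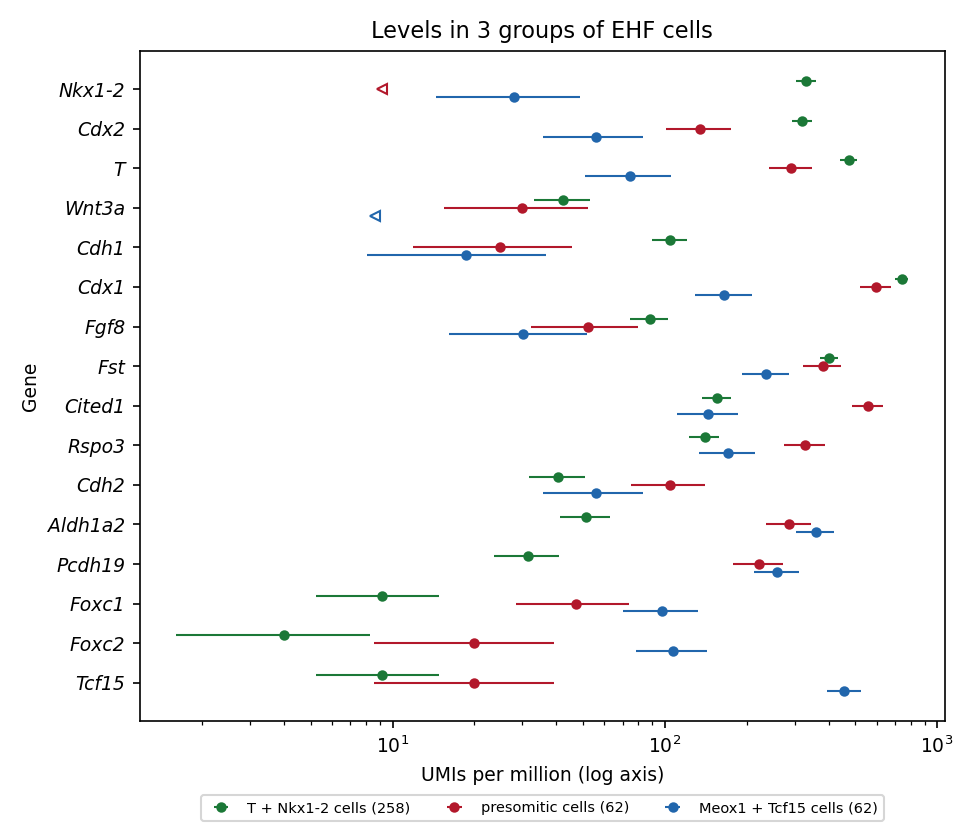
CPM on a log axis for 16 genes in caudal (T + Nkx1-2), presomitic and somitic (Meox1 + Tcf15) EHF cells, with exact Poisson 95% intervals as bars and open triangles at the upper limit of a count of 0. Cdx2 and T step down and Foxc1 and Foxc2 step up from caudal to somitic cells, with presomitic cells between, and Cited1 is highest in presomitic cells.

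Presomitic cells also varied among themselves. The 7 cells with Mesp2 (median 8748 UMIs) were compared with the 55 without (median 6256 UMIs). Mesp2 counts toward the 3 markers of the rule, so cells with it needed fewer of the other markers. Hes7 was found in 0 of the 7. The 2 sides were thus selected unequally, and the part of this in the split was not tested. Foxc1 and Pcdh19 were higher in the cells with Mesp2, and Cdx1, T and Cited1 were lower. Of these cells, 3 were among the 175 EHF cells with the highest doublet scores, and without those 175 the split was 4 against 50 cells, with Foxc1 at 3.07, Pcdh19 at 1.46, Cdx1 at -3.97 from 1 UMI, Cited1 at -1.83 and T at most -1.27. Pcdh19 was found in all 7 cells with Mesp2, with counts of 1, 1, 1, 5, 5, 5 and 7 UMIs, and in 30 of 55 cells without, at 489 CPM against 182 CPM (log2 ratio 1.42, 0.69 to 2.11). Foxc1 was at 176 CPM against 28.5 CPM (2.63, 1.15 to 4.08), with 3 UMIs in each of 3 cells and none in the other 4. Mesp1, a close relative of Mesp2 on the same chromosome, stood at 1.59 (0.06 to 2.95) and the matrix gene Fn1 at 0.75.

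Cdx1 had 2 UMIs in all in the 7 cells with Mesp2 and 238 in the others, 39.1 CPM against 677 CPM and a log2 ratio of -4.12 (-7.17 to -2.25). T had 2 and 115 UMIs (-3.07, -6.13 to -1.18). Cited1 stood at -2.67, Fst at -1.40 and Pou5f1 at -1.28. Cdx2 and Fgf15 had 0 UMIs in the 7 cells, whose upper limits are those of 51173 UMIs in all, against 54 and 32 in the 55 cells. Crabp1 did not follow this pattern, at 352 CPM and 364 CPM. The median log2 ratio over all genes with a minimum count was 0.46 in this split, because a gene at 0 in 7 cells was set to the floor. Summed lists of other cell types differed too. The somite list, which holds Foxc1, was at 332 CPM in cells with Mesp2 and 54.1 CPM in cells without, and the endoderm list at 156 CPM and 430 CPM. The erythroid list was at 117 CPM and 19.9 CPM, from Hbb-bh1 alone, a globin with 6 UMIs in 2 cells and 7 UMIs in 7 cells, while its other 4 genes were at 0. Their part in this split was not tested.

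**Figure D4:**
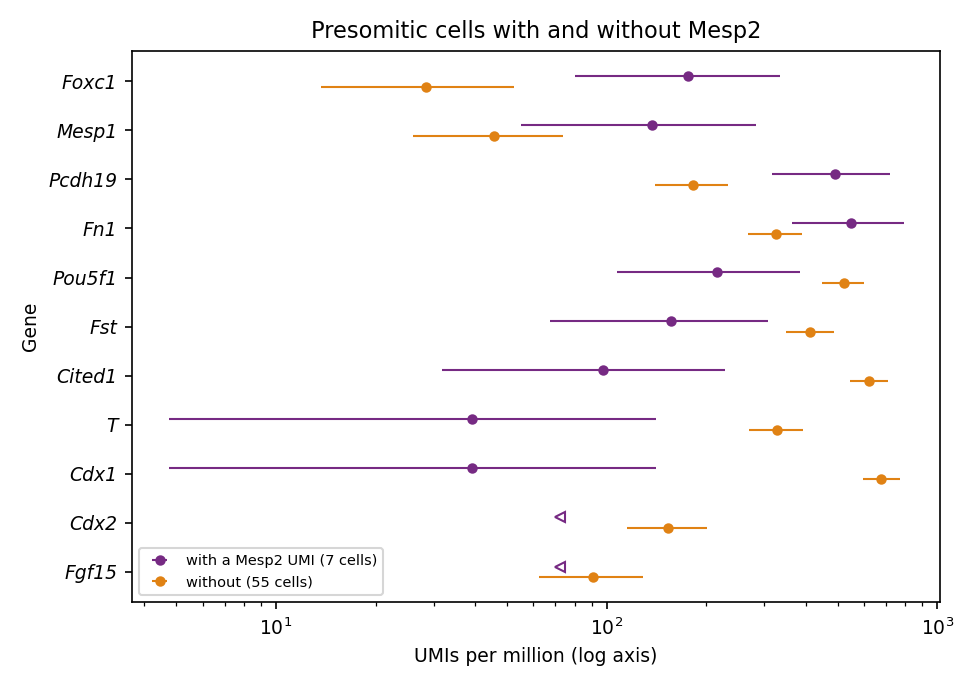
CPM on a log axis for 11 genes in the 7 presomitic cells with a Mesp2 UMI and the 55 without, with exact Poisson 95% intervals as bars and open triangles at the upper limit of a count of 0. Pcdh19 and Foxc1 are higher and Cdx1 and T lower in the cells with Mesp2.

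The 40 cells with T were deeper than the 22 without, with a median of 6586.5 against 4742 UMIs. Pcdh19, as CPM, was lower in cells with T, at 143 CPM against 399 CPM (-1.48, -2.12 to -0.85). Foxc2 had 1 UMI in cells with T and 7 in cells without (-3.99, -9.49 to -1.03). Crabp1 stood at -1.07 and the DNA methyltransferase Dnmt3b at -1.36. Epha1 and Efna1 were higher in cells with T, at 2.21 and 2.14 from 2 UMIs each in the cells without, and Cdx1 stood at 0.70 (0.25 to 1.18). Aldh1a2 stood at -0.05 (-0.64 to 0.56). The summed endoderm list was at 490 CPM in cells with T and 179 CPM in cells without, and its part in this split was not tested.

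Clustering without the rule genes and the reporter asked whether the cells lie together. Among 30 clusters of EHF cells, 27 of the 62 presomitic cells (43.5%, 31.0 to 56.7) fell in cluster 3 and 20 (32.3%) in cluster 15, and the other 15 were spread over 7 clusters. Cluster 3 held 198 cells, of which 83.8% had Aldh1a2 and 77.3% had Pcdh19, and it also held 27 of the 62 somitic cells. Cluster 15 held 109 cells, of which 92.7% had T and 96.3% had Cdx1, and it held 50 caudal and 0 somitic cells. The clusters are numbered and not named here, and presomitic cells were 13.6% and 18.3% of them. Among the 15 nearest neighbours of a presomitic cell, 15.8% were presomitic cells on average, against 1.55% for other EHF cells, and 52 of 62 cells had at least 1. Cells with 3 or more markers that also had Meox1 or Nkx1-2 made up 21.0% of these neighbours, caudal cells 22.5%, cells with 2 markers 14.0%, somitic cells 3.12% and extraembryonic ectoderm cells 0.108%. Their shares of all EHF cells were 2.15%, 7.38%, 2.38%, 1.77% and 9.59% in the same order. A cell could count in several of these groups.

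The rule did not use tdTomato, which records cells in which the T locus drove Cre around the time of tamoxifen. The reporter was found in 26 of 62 presomitic cells (41.9%, 29.5 to 55.2) at 102 CPM, against 377 of 3432 other EHF cells (11.0%, 9.96 to 12.1) with a level between 23.8 and 28.4 CPM (Poisson interval). Somitic cells had it in 38.7% and caudal cells in 33.7%, which lies within the interval of the presomitic cells. Cells with 2 markers had it in 45.8%, and cells with 3 or more markers and Meox1 or Nkx1-2 in 62.7%. In the 335 extraembryonic ectoderm cells, 3 had a UMI (0.896%).

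After each cell was thinned to 2000 UMIs, 1 presomitic and 308 other cells were too shallow, and 9 of 61 presomitic cells (14.8%, 6.98 to 26.2) had tdTomato against 173 of 3124 others (5.54%, 4.76 to 6.40). At that depth the share was 11.3% in somitic cells (4.66 to 21.9), 13.0% in caudal cells (9.11 to 17.8), 28.8% in cells with 2 markers (19.2 to 40.0) and 32.0% in cells with 3 or more markers and Meox1 or Nkx1-2 (21.7 to 43.8). The highest count in a presomitic cell was 4 UMIs, so a cell without a UMI may still have carried the transcript. Cells with T had it in 20 of 40 and cells without T in 6 of 22, with depths that differ as given above. After thinning it was found in 6 of 40 cells with T and 3 of 21 without. With all UMIs its level was 100 CPM in cells with T and 106 CPM in cells without. Of the 7 cells with Mesp2, 1 had a UMI. Among cells whose sex could be called from X and Y transcripts, 16 of 34 female and 4 of 5 male presomitic cells were positive.

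**Figure D5:**
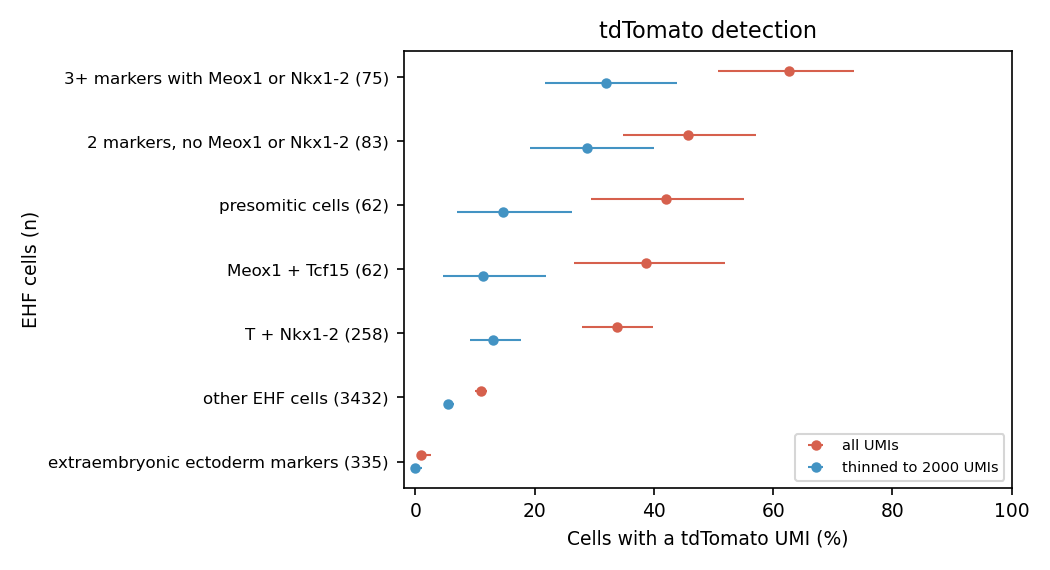
Share of cells (%) with a tdTomato UMI in groups of EHF cells, with all UMIs and after thinning each cell to 2000 UMIs, with exact binomial 95% intervals as bars. Presomitic cells stood at 41.9% with all UMIs and 14.8% after thinning, above the other EHF cells at 11.0% and 5.54%.

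The same rule was applied to the earlier stages, where Msgn1 was not among the genes of the tables. It took 18 of 3635 MS-LS cells (0.495%, 0.294 to 0.781), 22 of 3994 OB-EB cells (0.551%, 0.346 to 0.833) and 62 of 3494 EHF cells (1.77%). After thinning to 2000 UMIs these were 2 of 3404 (0.0588%), 2 of 2939 (0.0681%) and 14 of 3185 (0.440%). Mesp1, the early mesoderm factor, was found in 17 of 18 MS-LS and 18 of 22 OB-EB cells, against 15 of 62 at EHF. Lhx1, a LIM factor of early mesoderm, was found in 16 of 18, 14 of 22 and 13 of 62 cells. Eomes was found in 14, 6 and 2 cells in the same order. The cells met the rule by different markers, with Hes7 in 0, 3 and 37 cells and Mesp2 in 10, 13 and 7. Hoxb1 had 1, 0 and 86 UMIs and Cdx1 had 0, 1 and 240 UMIs in these cells. The median depth of the cells taken was 7490 UMIs at MS-LS, 5715 at OB-EB and 6267 at EHF.

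Of 39 presomitic cells with a sex call, 34 were female (87.2%), against 85.7% of the other EHF cells.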

How the data were processed

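The authors made Chromium 3′ v2 libraries, aligned reads and counted UMIs with Cell Ranger 3.0.2 against GRCm38 with vector sequences added, filtered cells by genes, UMIs and mitochondrial share, and deposited whole-number counts per gene and cell. The counts were used as deposited, with no normalization by the authors in the tables. CPM was computed as summed UMIs per 1000000. All 62 cells of the rule were summed. A gene entered the comparison with 100 UMIs over EHF cells, and a group at 0 was given 3 UMIs as its floor. Ratios carry exact conditional binomial intervals, and no ratio is given where both groups had 3 UMIs or fewer. Clustering used scanpy 1.11.5 and leidenalg 0.10.2 on 2000 variable genes, 50 components and 15 neighbours at resolution 3. Doublets were kept. Scrublet's automatic threshold marked 31 EHF cells, and an alternative dropped the 175 top-scoring cells, 8 of them members. These were 12.9% of members, against 5.01% of all EHF cells. The remaining work was done in Python 3.11.15 (scipy 1.17.1, pandas 2.3.3, numpy 2.4.6, matplotlib 3.10.9), and gene positions come from GENCODE for GRCm38.

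Each stage is 1 library, so no replicate test was possible. The members and gene lists were chosen with earlier results of these data known. Named genes were the rule genes, the 15 highest and 10 lowest ratios over other EHF cells (a UMI in at least 15% of members or 25% of others), the 5 highest and lowest against each comparison group, and list genes as groups. The ranking skipped rule genes, vector features, genes of mitochondria or ribosomal proteins, and Xist and Y genes. Alternatives changed the number of markers, the exclusion, depth, filters, doublets, sex and the scaling. The ratio was tested on simulated data for presomitic over other EHF cells, drawn over 9449 genes. Genes changed 4-fold came out at a median log2 ratio of 1.94 and genes changed 2-fold at 0.93, and 97.0% of the intervals of unchanged genes held 0. The simulated sums followed the Poisson model that the intervals assume, with no spread between cells or embryos. This coverage therefore checks the calculation only and not the intervals for real cells.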

Additional observations from a re-analysis of the deposited data

How the results depend on the processing

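Of 1212 gene ratios recomputed under an alternative, 1083 lay within the interval of the value reported or belonged to a value given as a bound, 110 lay outside it with the same sign, 18 lay outside it with the other sign, all of them where 14 members were left, and 1 called value changed sign, Zeb2 over other EHF cells at -0.080 with 4 or more markers. The 25 highest and lowest genes over other EHF cells kept 2-fold in 25 of 25 under 11 alternatives and in 23 with at least 4 markers. The alternative with no minimum of UMIs changes only which genes are counted. Its gene ratios, which are among the 1083 and the 11 alternatives, were fixed at the reported values. The number of presomitic cells was 145 with at least 2 markers, 14 with at least 4, 137 without the exclusion, 14 with the rule applied after thinning to 2000 UMIs and 34 among cells called female. The share with tdTomato was 64.3% under the thinned rule, 25.8% when a log-normalised value above 1 was required and 14.8% after thinning the cells. Genes at least 2-fold higher over other EHF cells were 913 with at least 4 markers, 1012 under the thinned rule and 1980 with no minimum of UMIs, and those lower were 686 and 652 under the first pair, in which fewer cells leave more genes at few UMIs. Against somitic cells 443 genes were lower with at least 2 markers, and against caudal cells 958 were higher with at least 4. Cells with T were 85.7% of members with at least 4 markers. The largest cluster held 30.6% of presomitic cells at resolution 6. The rule applied after thinning took 0.0588% of MS-LS, 0.0681% of OB-EB and 0.440% of EHF cells. Keeping only the members of clusters 3 and 15, chosen after seeing the data, left 47 cells. The alternatives on the comparisons with somitic and caudal cells and within members were also added after seeing the data. Without EHF replicate 2, the identical table, the count stayed at 62. No paired analysis was possible because each stage is 1 library. Depth is a limit, since 62 cells with few UMIs of each marker cannot show a gene's absence in a cell, and counting error does not cover differences between embryos.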
